A study of Mus musculus with 20 samples.

Results

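The MHC class II presentation genes described here are the 7 genes H2-Aa, H2-Ab1, H2-Eb1, H2-DMa, H2-DMb1, Cd74 and Ciita, of 54532 genes in the series. They are taken by name, a rule that uses no measured value, although the set was proposed with earlier results of these data known, and each name matched 1 gene. Bulk RNA-Sequencing was run on whole liver tissue and on cells sorted from liver metastases, in wild-type C57BL/6 mice with colorectal liver metastasis (CRLM). The normal liver (con, 2 samples) came from mice given normal saline, at day 0. All other samples came from mice that received 1000000 MC38 cells, a colon adenocarcinoma line derived from the same mouse strain, which reach the liver through the portal vein. Low-content tumor tissue (Lt, 2 samples) and the medium-content tissue Mt3 (2 samples) were taken at 9 days post-injection (dpi). The medium-content tissues Mt2 and Mt1 (2 samples each) were taken at 11 dpi, and high-content tumor tissue (Ht) and tumor-free liver remote from the tumor (L-con, 1 sample) at 12 dpi. Ht was sequenced as 3 libraries, of which Ht_1 and Ht_3 are stated to have been made identical and were summed here, so that Ht counted as 2 samples. 2 cell populations (3 samples each) were extracted from Mt2 metastases at 11 dpi with microbeads. Y22_M_TAM cells were selected by the macrophage surface antigen that Adgre1 encodes. Their titles name them by that antigen, and Y22_M_TAM is the code that those titles add in brackets. CD11b+ cells, coded Y22_M_MTAM in their titles, were selected by the integrin chain that Itgam encodes. The tissue samples are labelled male while the methods describe female animals, and the sorted cells carry no sex label. The groups of CRLM tissue differ in tumor content, and in part in day, so that the 2 cannot be told apart in every comparison.

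MHC class II molecules display peptides from ingested proteins to CD4 T cells. An alpha and a beta chain pair in the endoplasmic reticulum, where the invariant chain, the product of Cd74, fills the groove; in the endosome this chain is cut down to a short stub, which H2-DM exchanges for antigenic peptide. Dendritic cells, B cells and macrophages make these molecules constitutively or after exposure to interferon gamma, and the coactivator Ciita is required for most of their transcription. In the normal liver, Kupffer cells, dendritic cells and the sinusoidal endothelium are known to carry class II, and hepatocytes carry little.

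The members fall into a few roles. H2-Aa and H2-Ab1 encode the alpha and beta chains of I-A, and H2-Eb1 the beta chain of I-E. H2-DMa and H2-DMb1 encode the peptide exchange factor, Cd74 the invariant chain and Ciita the coactivator. Of the 7 members, 5 lie within the same stretch of chromosome 17 of GRCm38, in the order H2-DMa (34135182 to 34139101, plus strand), H2-DMb1 (34153072 to 34160230, plus), H2-Ab1 (34263209 to 34269418, plus), H2-Aa (34282744 to 34287827, minus) and H2-Eb1 (34305877 to 34316199, plus). Ciita lies on chromosome 16 (10480059 to 10528418, plus).

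Class II promoters are known to share a module of an X box and a Y box, to which factors of the RFX and NF-Y families bind and on which Ciita assembles. RefSeq promoter windows of GRCm38.p6, from 250 bases before to 50 after the gene start, were matched for 4 of the 7 members (H2-Aa, H2-Eb1, H2-DMb1 and H2-DMa), while H2-Ab1, Cd74 and Ciita are named only. The windows were searched on both strands for GATTGG, the reverse of the CCAAT core of a Y box, and for GNAAC, part of an X box, followed on the same strand by GATTGG at a start 20 to 40 bases further on. GATTGG stood in 16.1% of all 32851 windows and the spaced pair in 1.21%. The pair was present in 3 of the 4 matched members, with the Y box letters starting 49 bases before the gene start in H2-Aa, 60 in H2-Eb1 and 62 in H2-DMb1, and with X to Y distances of 32, 31 and 32 bases. In the 2 windows of H2-DMa, which lie well upstream of the start deposited for that gene, the pair was not found. The motif letters and the spacing were chosen after these promoters had been read, so the matches are a description. The stretches of H2-Aa and H2-Eb1, the chains with the highest levels among those matched, and of H2-Ob and H2-Eb2, chains of low level taken up below, are shown because they carry this shared arrangement; capitals mark the X box letters and then the Y box letters.
H2-Aa promoter, chr17:34287855-34287944, minus strand: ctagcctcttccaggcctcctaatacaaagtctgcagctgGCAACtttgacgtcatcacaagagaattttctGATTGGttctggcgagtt
H2-Eb1 promoter, chr17:34305735-34305824, plus strand: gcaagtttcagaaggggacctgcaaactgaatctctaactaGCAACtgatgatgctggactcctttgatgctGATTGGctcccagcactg
H2-Eb2 promoter, chr17:34325502-34325591, plus strand: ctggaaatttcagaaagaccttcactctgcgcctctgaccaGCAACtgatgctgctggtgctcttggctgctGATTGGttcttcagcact
H2-Ob promoter, chr17:34238775-34238864, plus strand: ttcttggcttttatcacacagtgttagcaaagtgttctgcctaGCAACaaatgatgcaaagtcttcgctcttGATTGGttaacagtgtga

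Levels are given as counts per 1000000 counts (CPM) on 1 TMM scale fitted over all 19 samples, so that tissue and sorted cells can be read side by side, and levels of different genes are compared as FPKM, which also divides by gene length. The tissue libraries held 16032085 to 18246623 counts and the sorted-cell libraries 17785496 to 20548370, and 3 counts, taken as the floor, corresponded to 0.146 to 0.187 CPM before scaling, counting error only. Every member was above this floor in all 19 samples, and every member passed the expression filter in each fit. The members together took 0.0108% and 0.0370% of the counts in con, 0.0831% to 0.211% in CRLM tissue and 1.08% to 4.69% in the sorted cells. The labels of the sorted cells were checked against macrophage markers: all 10 markers of that list were called higher in Y22_M_TAM and in CD11b+ cells than in Mt2 tissue. That list holds Adgre1, and the monocyte list used below holds Itgam, so these genes were bound to the selection. Of the 8 neutrophil genes, 5 were called higher and 1 lower in Y22_M_TAM cells, and 7 were called higher in CD11b+ cells (medians 3.55 and 6.87, against 3.21 and 3.10 for the macrophage list). Adgre1, the gene of the first antigen, was at 692 to 785 CPM in Y22_M_TAM cells, 508 to 547 CPM in CD11b+ cells and 101 to 124 CPM in Mt2 tissue, and Itgam, the gene of CD11b, at 245 to 296, 350 to 439 and 11.6 to 36.0 CPM in the same order. Each antigen gene was thus highest in the cells selected by it, though neither was called between the 2 populations, which did not overlap for 23.8% of the 14263 genes tested. TMM factors ran from 0.664 to 1.53 over the tissue samples, so the scaling bears on every comparison of con or Ht with other tissue.

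**Figure D1:**
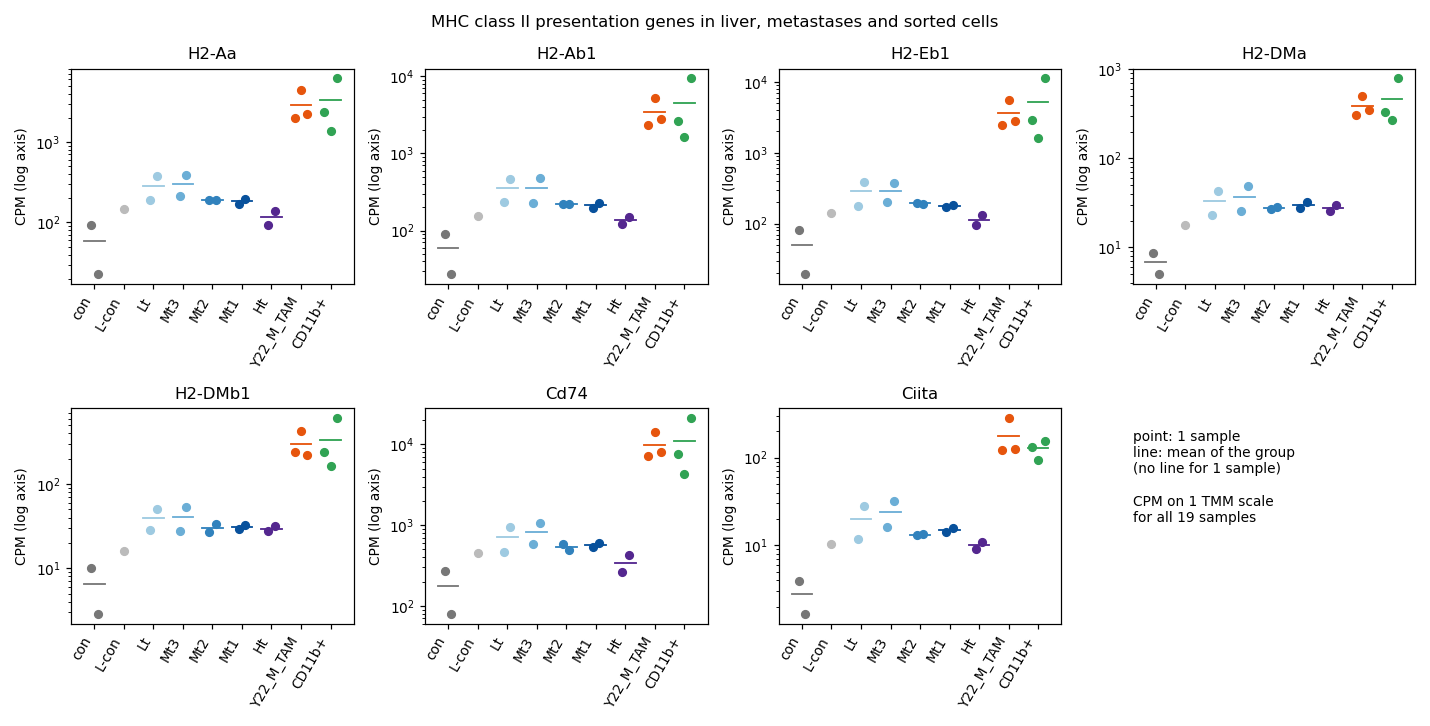
Level of each of the 7 genes (CPM, log axis) in every sample, by group; points are samples and lines group means. The con means are lowest for every gene, although one Ht sample lies just below the higher con sample for H2-Aa and Cd74, all tissue samples lie below the sorted cells, and the third CD11b+ sample is the highest of all for every gene except Ciita.

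The classical chains were low in normal liver and higher in Lt tissue. H2-Aa, the I-A alpha chain, was at 93.6 and 22.8 CPM in the con samples and at 190 and 381 CPM in the Lt samples. H2-Ab1, the I-A beta chain, was at 90.1 and 27.2 CPM in con and at 233 and 470 CPM in Lt. H2-Eb1, the I-E beta chain, was at 81.9 and 19.3 CPM in con and at 180 and 388 CPM in Lt. Both Lt samples lay above both con samples for all 3 chains, as for the other 4 members and for 37.2% of the 17187 genes tested, and the samples of each group differed widely from each other. The log2 fold changes from con to Lt were 2.30 for H2-Aa (standard error 0.62), 2.59 for H2-Ab1 (standard error 0.59) and 2.49 for H2-Eb1 (standard error 0.64), with adjusted p of 0.0379, 0.0185 and 0.0304 (quasi-likelihood test of edgeR, Benjamini-Hochberg adjusted over the whole tissue table). In C57BL/6 mice the I-E alpha gene is defective; the deposited H2-Ea-ps was listed at 0 counts in every sample but the third of CD11b+, which held 1 count.

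The peptide exchange genes rose alongside. H2-DMa, the DM alpha chain, was at 8.70 and 5.0 CPM in con and at 23.0 and 43.5 CPM in Lt, which gave a log2 fold change of 2.29 with a standard error of 0.41 (adjusted p = 0.00688, edgeR). H2-DMb1, a DM beta chain, was at 9.98 and 2.85 CPM in con and at 28.6 and 50.5 CPM in Lt, which gave 2.63 with a standard error of 0.53 (adjusted p = 0.0113, edgeR). Of the 50-base words in the annotated transcripts of H2-DMb1, 22.7% also occur in transcripts of H2-DMb2, so reads of these neighbours could have been assigned between them or dropped, and the value of H2-DMb1 is uncertain to that extent.

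Ciita, the coactivator, was at 3.94 and 1.64 CPM in con (43 and 19 counts) and at 11.9 and 27.8 CPM in Lt, which gave a log2 fold change of 2.84 with a standard error of 0.53 (adjusted p = 0.00788, edgeR). Cd74, the invariant chain, on chromosome 18 (60803848 to 60812646, plus strand), was at 270 and 79.3 CPM in con and at 461 and 949 CPM in Lt. Its log2 fold change of 2.02 (standard error 0.60) did not pass the test, with an adjusted p of 0.0546 from edgeR. Over the 8 alternative fits that kept all libraries, by edgeR or DESeq2, its adjusted p ran from 3.39e-07 to 0.0709, so the call depended on the fit. Ciita overlaps Dexi on the opposite strand and Cd74 overlaps Mir5107 on its own strand; whether counting used strand is not stated in the sources used here, so reads of such overlaps cannot be told apart.

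From con to Lt, 6 of the 7 members were thus called higher (adjusted p of at most 0.05 and a log2 fold change of at least 1) and 0 lower, whereas 12.4% of the 17187 genes tested were called higher. The median log2 fold change was 2.49 over the members and 0.10 over all genes. This count rests on individual libraries: it was 0 without con 2, 1 without Lt 2 and 7 without either of the other 2 libraries, with medians of 1.92, 1.82, 3.65 (without con 1) and 2.93 (without Lt 1) on the log2 scale. In whole tissue, a change in the number of cells of a type and a change in RNA per cell cannot be told apart. Markers of several cell types were called alongside the members: 6 of the 10 genes of the dendritic cell list were called higher from con to Lt, 5 of the 10 macrophage genes, 6 of the 8 monocyte genes, and 5 of the 7 tested neutrophil genes. The summed neutrophil list was at 3.62 to 4.85 CPM in con, with 4 of its genes at or under 3 counts, and at 51.6 to 81.9 CPM in Lt. Of the 9 B cell genes 1 was called, and of the 7 Kupffer cell genes and the 9 endothelial genes 0 were called by edgeR, with 2 and 0 at an unadjusted p under 0.05 and medians of 1.02 and -0.02 on the log2 scale. The summed dendritic list was at 17.1 to 25.7 CPM in con, with up to 2 of its genes at or under 3 counts, and at 43.2 to 63.3 CPM in Lt; the macrophage list was at 566 to 840 CPM in con and at 1066 to 1485 CPM in Lt; and the B cell list was at 3.0 to 4.9 CPM in con, with 2 to 4 of its genes at or under 3 counts, and at 7.9 to 12.7 CPM in Lt. The hepatocyte list, with 0 of 9 genes called, was at 170320 to 198318 CPM in con, at 162229 CPM in Lt 1 and at 87665 CPM in Lt 2. The part of these cell types in the rise of the members was not tested.

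**Figure D2:**
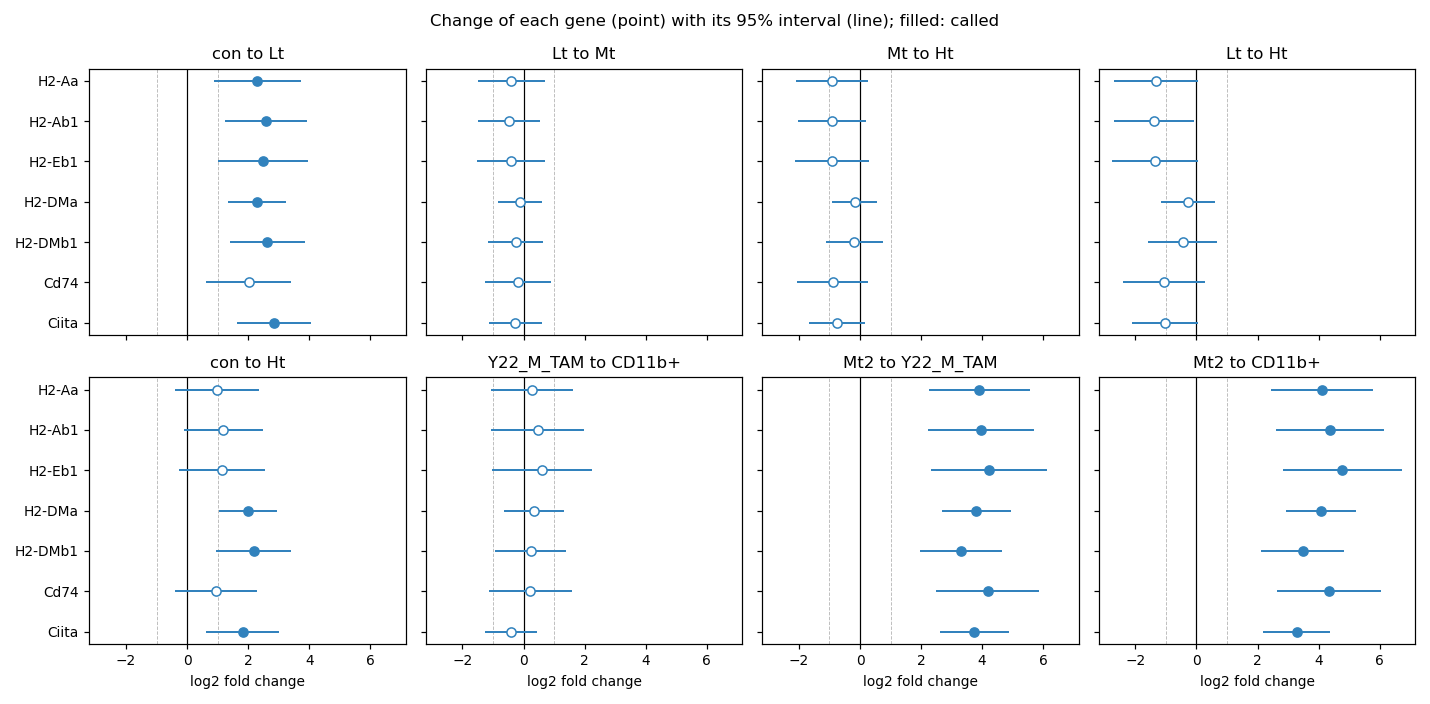
Log2 fold change of each gene (points; filled where called) with its 95% interval (lines) in 8 comparisons; dashed lines mark a log2 fold change of 1 in either direction. From Mt to Ht and from Lt to Ht the points of H2-DMa and H2-DMb1 sit nearer 0 than those of the other 5 genes, and both comparisons of Mt2 with sorted cells lie wholly to the right of 1.

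Among the CRLM tissues none of the class II genes was called in the main tests. Between Lt and Mt, averaged over its 3 groups, 0 of the 7 members were called and 0% of all 17187 genes by edgeR, with 0 members and 3282 genes at an unadjusted p under 0.05; by DESeq2 242 genes and 0 members were called. Member log2 fold changes from Lt to Mt ran from -0.48 (H2-Ab1) to -0.11 (H2-DMa). The sample values show how wide the spread was at 9 dpi. The Mt3 samples were at 212 and 388 CPM for H2-Aa, at 229 and 477 CPM for H2-Ab1 and at 204 and 377 CPM for H2-Eb1. For Cd74 they were at 585 and 1063 CPM, for H2-DMa at 25.4 and 49.0 CPM, for H2-DMb1 at 27.8 and 52.6 CPM and for Ciita at 16.2 and 31.6 CPM. Within Mt3 the higher sample was 1.82 to 2.08 times the lower over the 7 genes, and within Lt 1.77 to 2.34 times. At 11 dpi the samples lay much closer: the ratio was 1.01 to 1.23 in Mt2 and 1.07 to 1.17 in Mt1.

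In Mt2 and Mt1 the values of most members overlapped. H2-Aa was at 192 and 190 CPM in Mt2 and at 169 and 196 CPM in Mt1, H2-Ab1 at 221 and 222 CPM in Mt2 and at 196 and 229 CPM in Mt1, and H2-Eb1 at 197 and 188 CPM in Mt2 and at 170 and 182 CPM in Mt1. H2-DMa was at 26.9 and 28.1 CPM in Mt2 and at 27.7 and 32.1 CPM in Mt1, and H2-DMb1 at 27.1 and 33.3 CPM in Mt2 and at 29.1 and 32.5 CPM in Mt1. Cd74 was at 593 and 493 CPM in Mt2 and at 534 and 606 CPM in Mt1, and Ciita at 13 and 13.4 CPM in Mt2 and at 14.1 and 15.7 CPM in Mt1. The groups overlapped for every member except H2-Eb1, which was lower in Mt1, and Ciita, which was higher in it; 18.2% of all genes tested did not overlap between these groups. The summed hepatocyte list ran from 23935 to 96898 CPM within Mt2 and from 23334 to 92997 CPM within Mt1, a wider spread than that of any member there.

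On the TMM scale the classical chains, the invariant chain and Ciita had lower values in Ht than in the other CRLM tissues. The peptide exchange genes in Ht were within the range of the Mt samples. H2-Aa was at 93.1 and 138 CPM in Ht, H2-Ab1 at 120 and 152 CPM and H2-Eb1 at 96.0 and 131 CPM. Cd74 was at 261 and 422 CPM and Ciita at 9.01 and 10.95 CPM. For these 5 genes both Ht samples lay below all 8 samples of Lt and Mt, as they did for 22.3% of the 17187 genes tested. This placing rests on the scaling. For all 5 genes Lt 1 (18178794 counts) held fewer counts than Ht 2 (18246623 counts), such as 2552 against 3777 for H2-Aa and 159 against 299 for Ciita, while Lt 2 held more. H2-DMa was at 25.5 and 30.1 CPM in Ht and H2-DMb1 at 27.4 and 31.3 CPM. None of these differences passed the main test. From Mt to Ht, 0 of the 7 members were called by edgeR against 14.9% of all genes, and 0 had an unadjusted p under 0.05; DESeq2 also called 0. With no filter on low counts the adjusted p of edgeR was 0.00896 (H2-Aa), 0.0121 (H2-Ab1), 0.00882 (H2-Eb1), 0.0342 (Cd74) and 0.0301 (Ciita), and these genes then missed only the fold threshold. The 14.9% itself was 0 without either Ht sample. Log2 fold changes were -0.92 for H2-Aa (95% interval -2.07 to 0.23), -0.91 for H2-Ab1, -0.92 for H2-Eb1, -0.90 for Cd74 and -0.75 for Ciita, but -0.17 for H2-DMa (95% interval -0.87 to 0.53) and -0.19 for H2-DMb1, around a median of 0.00 for all genes tested.

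From Lt to Ht, 0 of the 7 members were called against 31.9% of all genes, and 1 member, H2-Ab1, had an unadjusted p under 0.05. The classical chains had log2 fold changes of -1.33 (H2-Aa, adjusted p = 0.0994), -1.40 (H2-Ab1, adjusted p = 0.0699) and -1.35 (H2-Eb1, adjusted p = 0.101) by edgeR's quasi-likelihood test, Cd74 of -1.07 and Ciita of -1.02. H2-DMa was at -0.28 and H2-DMb1 at -0.45. Here the choice of fit decided the call. DESeq2 called the change of H2-Ab1 from Lt to Ht (adjusted p = 0.0428). Those of H2-Aa, H2-Ab1 and H2-Eb1 were called with only Lt and Ht in the edgeR fit or with no filter on low counts. With the 3 Ht libraries as separate samples, these 3 and Ciita were called. That fit counts Ht_1 and Ht_3 separately, although they are stated to have been made identical, so it may understate the error. Each of these calls was downward. Leaving out Lt 2 brought the log2 fold changes to -0.73 (H2-Aa), -0.79 (H2-Ab1), -0.67 (H2-Eb1), -0.45 (Cd74) and -0.27 (Ciita), and those of H2-DMa and H2-DMb1 to 0.26 and 0.03. Without Lt 1 those of H2-DMa and H2-DMb1 were -0.66 and -0.79, that of Ciita was -1.49, and no member was called in any fit without 1 library. With total-count scaling the median of all genes from Lt to Ht moved from -0.01 to 0.87; the classical chains were then at -0.49 to -0.55, below that median, Cd74 and Ciita were at -0.23 and -0.18, and H2-DMa and H2-DMb1 turned to 0.57 and 0.40. Ht_1 and Ht_3 were not alike in every member: relative to all counts, Ht_3 held between 0.674 (H2-DMb1) and 0.969 (Cd74) times the level of Ht_1.

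Over Lt, Mt3, Mt2, Mt1 and Ht together, 0 of the 7 members differed among groups by edgeR, with 0 at an unadjusted p under 0.05, whereas 25% of all genes tested differed; DESeq2's likelihood ratio test also called 0 members and, with no filter on low counts, edgeR called 4. The adjusted p ran from 0.242 (Ciita) to 0.836 (H2-DMb1) in the main edgeR test. Across the 10 CRLM samples H2-Aa ran from 93.1 to 388 CPM, a ratio of 4.17, and H2-DMb1 from 27.1 to 52.6 CPM, a ratio of 1.94.

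Markers of other cell types were called between these tissues. From Mt to Ht all 9 genes of the hepatocyte list were called lower, as were 6 of the 7 Kupffer cell genes, 4 of the 9 B cell genes and 3 of the 9 endothelial genes. The summed endothelial list was at 198 to 207 CPM in Ht and at 227 to 389 CPM in the other CRLM tissues. Of the macrophage list 0 of 10 genes were called and of the dendritic list 0 of 10, at unadjusted p under 0.05 for 4 and 2 of them. Summed levels were 2302 to 2349 CPM for macrophage genes in Ht against 1066 to 1945 CPM in the other CRLM tissues, 83.8 to 138 CPM for Kupffer cell genes in Ht against 284 to 1011 CPM, and 7.5 to 8.0 CPM for B cell genes in Ht against 7.9 to 18.1 CPM. On the TMM scale the Ht samples thus held the highest macrophage sums of the tissue series and the lowest class II sums of the CRLM tissues, 632 and 915 CPM against 1128 to 2439 CPM. As a share of all counts the members took 0.0964% and 0.137% in Ht, 0.0831% in Lt 1 and 0.104% in Mt3 1. Without the scaling the Ht samples were thus not the lowest, although the Ht mean of 0.117% was the lowest of the CRLM groups. The part of these cell types in the levels of the members was not tested.

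**Figure D3:**
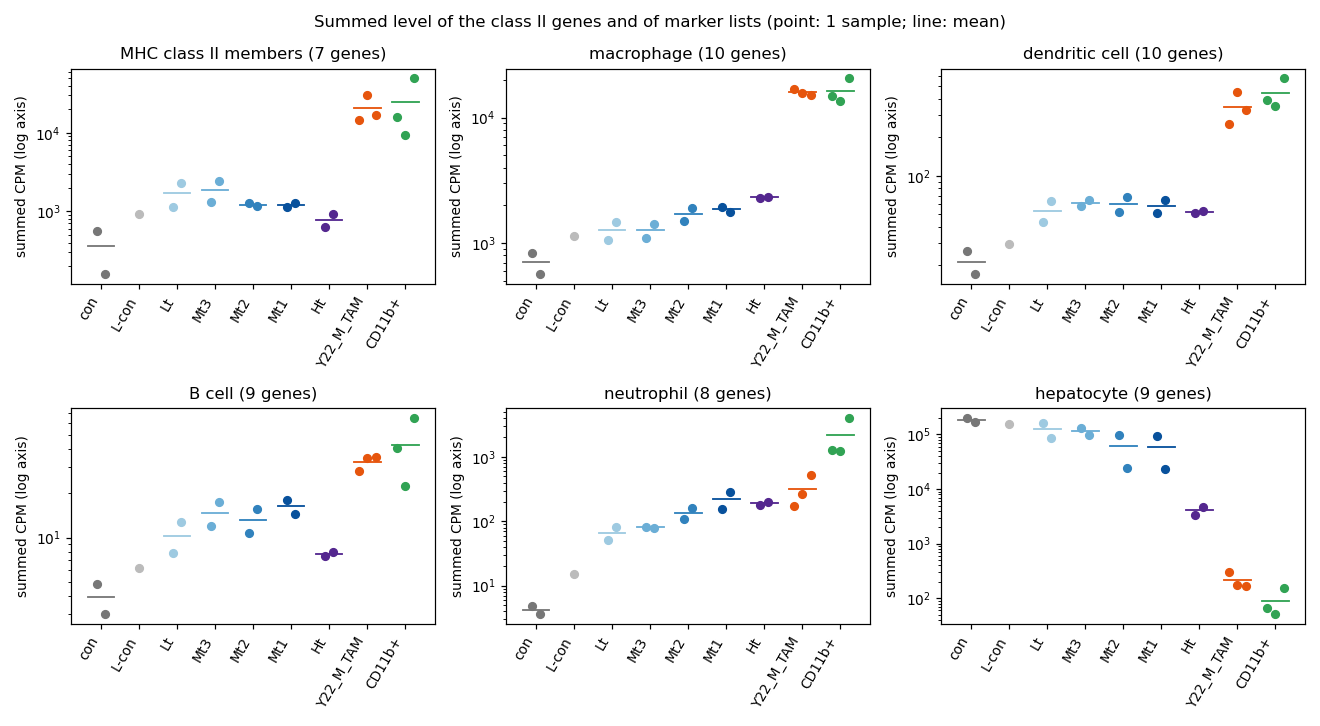
Summed level (CPM, log axis) of the 7 class II genes and of lists of macrophage, dendritic cell, B cell, neutrophil and hepatocyte markers in every sample; points are samples and lines group means. On this TMM scale the macrophage sum in Ht is the highest of the tissues while the class II sum is the lowest of the CRLM tissues. As a share of all counts Lt 1 held the lowest class II level of the CRLM samples, 0.0831%.

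Against the normal liver, Ht was higher for a part of the members. From con to Ht 3 of the 7 members were called higher, against 25.8% of all genes tested: H2-DMa at 2.0 on the log2 scale (standard error 0.41), H2-DMb1 at 2.18 (standard error 0.53) and Ciita at 1.82 (standard error 0.52), with adjusted p of 0.00221, 0.00548 and 0.0121 in that order (edgeR). The values of H2-Aa (0.97), H2-Ab1 (1.19), H2-Eb1 (1.15) and Cd74 (0.95) did not pass. The highest con sample overlapped with Ht for H2-Aa and Cd74, and 85.7% of all genes tested did not overlap between these groups. The median was 1.19 over the members and 0.09 over all genes. All 7 members were called with no filter on low counts, where 4861 of 29359 genes were called higher. All 7 were also called with total-count scaling, where 8822 of 17187 genes were called higher. Under that scaling the median of all genes itself moved to 1.28 and that of the members to 2.39. The median of the members was 2.46 without con 1 and 0.57 without con 2. In the same comparison 7 of the 10 macrophage genes, 7 of the 8 monocyte genes, 5 of the 10 dendritic genes and 3 of the 7 tested neutrophil genes were called higher, with 1 gene of the macrophage list and 1 of the monocyte list lower, and all 9 hepatocyte genes, 4 of the 7 Kupffer cell genes and 3 of the 9 endothelial genes lower. The summed hepatocyte list was at 170320 to 198318 CPM in con and at 3363 to 4792 CPM in Ht. The part of these cells in the difference was not tested.

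The balance between the 2 kinds of chain was read within each library, where depth and scaling cancel. The FPKM of H2-DMa as a percentage of that of H2-Aa was 31.3 and 24.9 in Ht. Of the 50-base words in the annotated transcripts of H2-DMa, 8.43% also occur in transcripts of Brd2, and its value is uncertain to that extent. In the other 8 CRLM samples it ran from 13 to 18.7: the Lt samples were at 13.8 and 13, those of Mt3 at 13.7 and 14.4, those of Mt2 at 16 and 16.9, and both of Mt1 at 18.7. Con samples were at 10.6 and 25.1, from 95 and 58 counts of H2-DMa, and L-con at 14.1. Both Ht samples were above the other CRLM samples, and the sorted cells, at 13 to 22.9, were below both. This ratio was chosen after the fold changes had been seen and was not tested. Within the classical chains the proportions moved little: over the CRLM tissues H2-Aa was at 0.678 to 0.808 of the FPKM of H2-Ab1 and H2-Eb1 at 1.06 to 1.23 of it. Cd74, the most abundant member per length in every sample, was at 3.22 to 4.2 times the FPKM of H2-Aa over the CRLM tissues, and the lowest was Ciita, at 0.945 to 3.32 FPKM there.

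**Figure D4:**
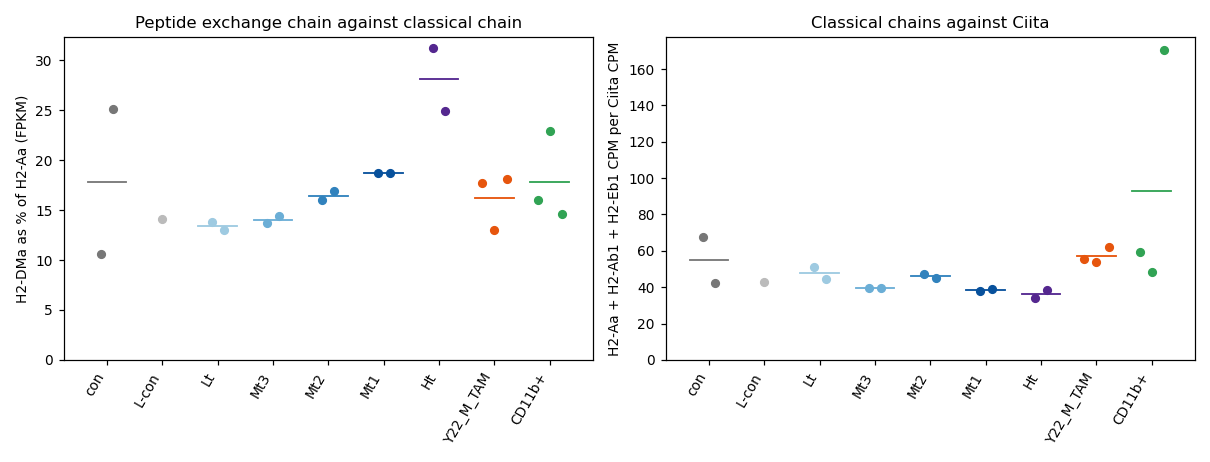
Left, H2-DMa as a percentage of H2-Aa (both in FPKM); right, summed CPM of H2-Aa, H2-Ab1 and H2-Eb1 per CPM of Ciita; points are samples and lines group means. On the left both Ht samples lie above the other CRLM samples, and on the right the third CD11b+ sample, at 171, stands far above all others, which lie between 34.3 and 67.4.

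The less abundant class II chains were read beside the members. H2-DMb2 is an alternative DM beta chain, H2-Oa and H2-Ob form the DM inhibitor H2-O, known from B cells and dendritic cells, and H2-Eb2 is a further E beta gene. H2-DMb2 was at 0.92 and 0.09 CPM in con (10 counts and 1 count) and at 3.58 and 6.14 CPM in Lt, and was called higher from con to Lt (3.29 on the log2 scale, standard error 0.65, adjusted p = 0.0106, edgeR) and from con to Ht (2.88, adjusted p = 0.00381, edgeR). H2-Oa and H2-Ob had log2 fold changes from con to Lt of 1.87 and 1.43, which did not pass. H2-Oa held 3 and 4 counts in con, at or next to the floor, so its fold is uncertain, and H2-Ob held 12 and 11. H2-Eb2, at 3 and 0 counts in con and 5 and 14 counts in Lt, was not called and is given no fold. Of the 4 chains tested 0 were called between the CRLM tissues, where H2-DMb2 ran from 3.58 to 7.01 CPM, H2-Oa from 0.57 to 1.96, H2-Ob from 0.92 to 3.94 and H2-Eb2 from 0.37 to 1.56. Of the 50-base words of H2-DMb2, 25.9% were shared with other genes, as were 15.5% of those of H2-Oa, with the antisense gene BC051537.

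Other genes of the pathway were read from lists by function. The shares of all 17187 genes called higher, to be set beside each list, were 12.4% from con to Lt and 25.8% from con to Ht. Of the 15 tested genes of the promoter factors and the interferon gamma route, 4 were called higher from con to Lt, among them Socs1, an inhibitor of cytokine signaling (log2 fold change 3.19), Irf8, a myeloid transcription factor (1.69), and Irf1, a transcription factor induced by interferon gamma (1.18). The genes of the RFX complex were not called, with 0.34 for Rfx5, -0.08 for Rfxap and 0.22 for Rfxank. Ifng itself was at 0 counts in con and at 2 and 4 counts in Lt, too few to test. From con to Ht 4 of the 15 genes were called higher, against 25.8% of all genes. They were Socs1 (4.08), Nfya, a subunit of the Y box factor (2.22), Irf8 (2.13) and Ifngr1 (1.40). Irf1, at 0.98 (adjusted p = 0.00985, edgeR), missed the fold threshold of 1. From Lt to Ht 1 of the 15 genes, Nfya, was called (1.24, adjusted p = 0.00367, edgeR), against 31.9% of all genes.

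Of the 9 genes that process antigen and the invariant chain, 3 were called higher from con to Lt: Ctss, the protease that trims the invariant chain (log2 fold change 2.44), Ifi30, a thiol reductase of the endosome (1.68), and Lgmn, asparaginyl endopeptidase (1.35). From con to Ht these were at 3.08, 2.39 and 2.30 and all 3 were called, with Ap1m1 (1.11), and Sppl2a, which cleaves the last fragment of the invariant chain, was called lower (-1.70); Ctsl (-0.70), Ctsb (0.29), Ctsd (-0.01) and Ap2m1 (-0.03) did not pass. Ctss was at 448 and 497 CPM in Ht and at 218 and 380 CPM in Lt, with both Ht samples above both Lt samples, and was not called between them. Of the 7 costimulation genes, 3 were called from con to Lt, Cd40 (3.99, from 4 and 2 counts in con), Icosl (2.67) and Cd274 (2.11), and the others, Cd80 (1.75), Cd86 (1.22), and Tnfsf4 and Pdcd1lg2, which held at most 1 count per con sample, did not pass. All 7 were called higher from con to Ht, among them Cd40 (4.22) and Icosl (3.30); Tnfsf4 was at 0 counts in both con samples and at a mean of 0.62 CPM in Ht.

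Of the 6 genes of class II turnover and restraint, 3 were called higher from con to Lt: Il10ra, a chain of the interleukin-10 receptor (2.24), Cd83, which stabilizes class II at the surface (1.83), and Tgfb1 (1.14). March1, a ubiquitin ligase that removes class II from the surface, was at 1.25, March8 at -0.55 and Il10, with 1 and 0 counts in con, at 5 counts in each Lt sample; these 3 did not pass. From con to Ht 5 were called higher, among them March1 (2.09) and Il10ra (2.98), and March8 lower (-1.41). On the CD4 T cell side 0 of 9 tested genes were called from con to Lt and 1, Cd3d (2.66), from con to Ht; Icos was called lower from Mt to Ht (-1.34, adjusted p = 0.0163, edgeR). Of the 5 CD74 partners, Cd44, which signals with CD74, was called from con to Lt (2.50) and from con to Ht (3.66), Ddt, a homolog of the CD74 ligand Mif, was lower from con to Ht (-4.22) and from Mt to Ht (-2.54), and Mif was at -0.23 and -0.49 from con to Lt and to Ht, not called.

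In the sorted cells every member was above its level in every tissue sample, as were 17.7% of the 18407 genes tested. H2-Aa was at 1974, 4388 and 2204 CPM in Y22_M_TAM cells and at 2386, 1355 and 6175 CPM in CD11b+ cells. H2-Ab1 was at 2322, 5279 and 2789 CPM in Y22_M_TAM cells and at 2633, 1629 and 9408 CPM in CD11b+ cells. H2-Eb1 was at 2434, 5526 and 2832 CPM in Y22_M_TAM cells and at 2911, 1616 and 11230 CPM in CD11b+ cells. The lowest and the highest values of each chain both came from CD11b+ cells, and the groups overlapped throughout. Cd74 was at 7137, 14182 and 8150 CPM in Y22_M_TAM cells and at 7493, 4286 and 21047 CPM in CD11b+ cells. H2-DMa was at 306, 499.9 and 349 CPM in Y22_M_TAM cells and at 334, 272 and 791 CPM in CD11b+ cells. H2-DMb1 was at 243, 431 and 222 CPM in Y22_M_TAM cells and at 243, 162 and 605 CPM in CD11b+ cells. Ciita was at 122, 282 and 126 CPM in Y22_M_TAM cells and at 134, 95.2 and 157 CPM in CD11b+ cells.

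All 7 members were called higher from Mt2 tissue to Y22_M_TAM cells, against 17.2% of the 18407 genes tested, and all 7 from Mt2 tissue to CD11b+ cells, against 17.6%. Mean CPM in Y22_M_TAM cells was 18.7 times that of Mt2 tissue for H2-Eb1, 18.1 times for Cd74, 13.4 times for Ciita and 9.90 times for H2-DMb1. In CD11b+ cells the ratio was 27.3 for H2-Eb1, 20.2 for Cd74, 9.77 for Ciita and 11.2 for H2-DMb1. These means rest on CD11b+ 3: without it the ratios were 11.8, 10.9, 8.69 and 6.72, and the log2 fold changes of H2-Eb1 and Cd74 from Mt2 tissue to CD11b+ cells were 3.56 and 3.44. Log2 fold changes ran from 3.31 (H2-DMb1) to 4.22 (H2-Eb1) for Y22_M_TAM cells, with adjusted p of at most 8.91e-04, and from 3.29 (Ciita) to 4.77 (H2-Eb1) for CD11b+ cells, with adjusted p of at most 3.98e-04, from edgeR fitted over all 19 samples; the median of all genes was -0.12 and -0.08. The counts were 7 under every alternative, with Ht in place of Mt2 included. Tissue and sorted cells stand in separate tables, and preparation and cell content cannot be told apart. The 2 comparisons share the Mt2 samples. Other lists were called as well: 4 of 10 dendritic genes and 6 of 8 monocyte genes were higher in Y22_M_TAM cells, and 7 of 10 and 6 of 8 in CD11b+ cells, with 1 dendritic and 2 monocyte genes lower in each. Of the 7 Kupffer cell genes 1 was higher in Y22_M_TAM cells and 6 were lower in CD11b+ cells. Of the B cell list 1 of 9 genes was higher in each, and 1 was lower in CD11b+ cells. Endothelial genes were lower, 6 of 9 in Y22_M_TAM and 8 of 9 in CD11b+ cells, and so were all 9 hepatocyte genes in both. The part of these cells in the levels of the members was not tested.

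Genes of antigen processing and costimulation were called in part. From Mt2 tissue to Y22_M_TAM cells 5 of the 9 processing genes were called higher, with Ctss (log2 fold change 3.17), Lgmn (3.08) and Ifi30 (2.85) the largest, and Ctsl was lower (-1.36); Sppl2a (-0.15), Ap1m1 (0.05) and Ap2m1 (0.43) did not pass. In CD11b+ cells the corresponding values were 3.42, 3.0, 3.03 and -1.49, with Sppl2a (-0.24), Ap1m1 (0.18) and Ap2m1 (0.57) again not called. Of the 7 costimulation genes 6 were called higher in each population, with Icosl at 3.37 in Y22_M_TAM and 3.33 in CD11b+ cells and Cd40 at 2.94 and 3.28, and Tnfsf4 (-1.81 and -0.63) was not called. Of the 15 tested genes of the promoter and interferon gamma list, Y22_M_TAM cells had 6 higher, among them Irf8 (3.07), Ifngr1 (2.17) and Rfx5 (1.10), and Nfyb lower (-1.09), and CD11b+ cells had 5 higher, with Rfx5 at 0.59, not called.

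Genes of turnover, of T cells and of CD74 signaling were read in the same way. Cd83 was at 4.01 and Il10ra at 3.61 from Mt2 tissue to Y22_M_TAM cells and at 3.54 and 3.34 to CD11b+ cells, all called. Il10 was at 4.76 and 4.39, from 4 and 20 counts in Mt2. March8 was called lower in CD11b+ cells (-1.11) and was at -0.93 in Y22_M_TAM cells, not called; between the 2 populations it was at -0.14 (adjusted p = 0.695, edgeR). Cd4 and Lag3 were called higher in both populations (Cd4 at 1.90 and 1.43) while the CD3 chain genes were not called. Of the CD74 partners, Cxcr4 was higher in both (4.17 and 4.18) and Cxcr2 in CD11b+ cells (6.04). Cxcr2 was at 1.66 in Y22_M_TAM cells, not called, and at 4.43 between the populations (adjusted p = 0.0864, edgeR). It also belongs to the neutrophil list, whose median from Mt2 tissue to CD11b+ cells was 6.87. Ddt was lower in both (-1.56 and -1.24), and Mif (0.12 and 0.72) and Cd44 (0.65 and 0.78) were not called.

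Between Y22_M_TAM and CD11b+ cells 0 of the 7 members were called by edgeR, where 0.0771% of the 14263 genes tested (11 genes) were, and 0 members had an unadjusted p under 0.05; DESeq2 called 0 members. The log2 fold changes, CD11b+ relative to Y22_M_TAM, were 0.27 for H2-Aa (95% interval -1.03 to 1.58), 0.46 for H2-Ab1 (-1.03 to 1.95), 0.61 for H2-Eb1 (-0.99 to 2.20), 0.33 for H2-DMa (-0.62 to 1.29), 0.23 for H2-DMb1 (-0.91 to 1.37), 0.22 for Cd74 (-1.11 to 1.54) and -0.40 for Ciita (-1.22 to 0.42). The intervals reach above 1 for every member but Ciita and below -1 for H2-Aa, H2-Ab1, Cd74 and Ciita, so that differences of that size are within the error of this comparison. Without CD11b+ 3 the median of the members turned from 0.27 to -0.58.

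The sample CD11b+ 3 stood apart in the balance of its class II genes. Per CPM of Ciita it held 171 CPM of H2-Aa, H2-Ab1 and H2-Eb1 together, whereas the other 5 sorted samples held 48.3 to 62.2 and all tissue samples 34.3 to 67.4. It also had the lowest ratio of H2-Aa to H2-Ab1 FPKM of all 19 samples, 0.573, and the highest ratio of H2-Eb1 to H2-Ab1, 1.65. Its Ciita level of 157 CPM was below that of Y22_M_TAM 2, at 282 CPM, whose summed classical chains were at 15194 CPM against 26812 CPM. Markers moved with it: the dendritic genes Cd209a, at 71.6 CPM against 26.8 and 17.3 CPM in the other CD11b+ samples, Batf3, at 77.6 CPM against 22.2 and 18.6 CPM, and Xcr1, at 10.4 CPM against 3.23 and 1.40 CPM, were highest in it. The summed macrophage list was at 20542 CPM in it against 14813 and 13484 CPM, whereas the mean log2 level over that list was 9.83, the lowest of the 6 sorted samples, against 9.92 and 9.87. The sum is carried by the complement genes C1qa, C1qb and C1qc, at 6181, 6034 and 4034 CPM in it, while Mrc1, at 311 CPM against 664 and 697 CPM, and Mertk, at 54.2 CPM against 185 and 170 CPM, were lower. These genes were chosen after their values were seen. The summed neutrophil list was at 3976 CPM against 1274 and 1216 CPM. The part of these cells in the level of the members was not tested.

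The less abundant chains had higher means in CD11b+ than in Y22_M_TAM cells, without passing the test. H2-Oa was at 1.57, 2.01 and 1.63 CPM in Y22_M_TAM cells and at 13.4, 7.02 and 24.3 CPM in CD11b+ cells, or 3.15 on the log2 scale with a standard error of 0.46 (adjusted p = 0.0580, edgeR). H2-DMb2 was at 14.4, 32.8 and 17.6 CPM in Y22_M_TAM cells and at 55.3, 33.7 and 99.2 CPM in CD11b+ cells, H2-Ob at 5.46, 11.9 and 7.99 against 16.9, 11.9 and 40.9 CPM, and H2-Eb2 at 0.56, 2.31 and 1.13 against 3.09, 2.16 and 6.27 CPM. The groups did not overlap for H2-Oa and H2-DMb2, nor for 23.8% of all genes tested. Log2 fold changes of H2-DMb2, H2-Ob and H2-Eb2 were 1.59, 1.51 and 1.57, with adjusted p of 0.292, 0.375 and 0.442 from the edgeR test, and all 4 chains had an unadjusted p under 0.05, as did 1503 of the 14263 genes. H2-DMb2 was at 16.4% to 22.7% of the CPM of H2-DMb1 in CD11b+ cells and at 5.93% to 7.94% in Y22_M_TAM cells. From Mt2 tissue, all 4 were called higher in CD11b+ cells (H2-Oa 3.95, H2-DMb2 3.69, H2-Ob 3.24, H2-Eb2 1.89), and H2-DMb2 (2.15) and H2-Ob (1.78) in Y22_M_TAM cells, with H2-Oa at 0.85 and H2-Eb2 at 0.37 not called.

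**Figure D5:**
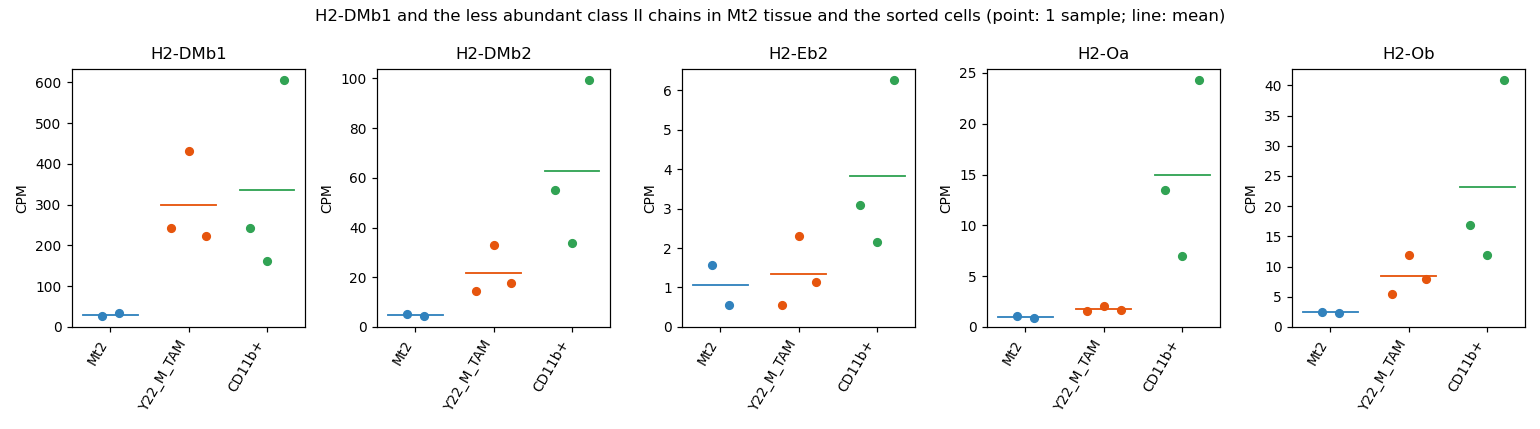
Levels (CPM) of H2-DMb1 and of the less abundant chains H2-DMb2, H2-Eb2, H2-Oa and H2-Ob in Mt2 tissue, Y22_M_TAM cells and CD11b+ cells; points are samples and lines group means. All 3 CD11b+ samples lie above the Y22_M_TAM samples for H2-Oa and H2-DMb2, while the populations overlap for H2-DMb1.

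Of the cell type markers, 1 dendritic gene was called between the 2 populations. Of the dendritic list, 5 of 10 genes had an unadjusted p under 0.05, each with a positive log2 fold change toward CD11b+ cells, and 1, Ccr7, was called (2.08; 4.04, 4.08 and 5.03 CPM against 16.5, 17.9 and 19.4 CPM); Cd209a was at 5.45, Zbtb46 at 1.97, Clec10a at 1.69 and Flt3 at 1.60. Of the 7 tested B cell genes 0 had an unadjusted p under 0.05. Of the 7 Kupffer cell genes 0 were called by edgeR, although all 7 had an unadjusted p under 0.05, with a median of -3.03. Of the 8 neutrophil genes 0 were called and 7 had an unadjusted p under 0.05, with a median of 3.55. The endothelial list, summed, with 0 of 8 genes called and 8 at an unadjusted p under 0.05, was at 114 to 232 CPM in Y22_M_TAM cells and at 52.9 to 59.7 CPM in CD11b+ cells. The part of these cells in the levels of H2-Oa and H2-DMb2 was not tested.

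On the TMM scale the order of the group means was nearly shared by the members. Con was lowest and the sorted cells highest for each of the 7. For the classical chains, Cd74 and Ciita, Ht came next above con, with the tumor-free L-con above Ht, then Mt2 and Mt1, then Lt and Mt3; for H2-DMa and H2-DMb1 L-con came next above con, and Ht, which overlapped with Mt2 for both, had a mean between those of Mt2 and Mt1 for H2-DMa and the lowest CRLM mean for H2-DMb1. Neighbours among Mt1, Mt2, Lt and Mt3 overlapped in most cases, and Y22_M_TAM and CD11b+ cells overlapped for every member. H2-Aa and Cd74 of Ht overlapped with con. As a share of all counts the members took 0.0647% in L-con and 0.0964% and 0.137% in Ht, so the placing of L-con above Ht rests on the scaling.

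Over the 13 tissue samples the members followed each other closely, with Pearson's r of log2(CPM + 1) between 0.902 and 0.998 over the 21 pairs of members; over the 6 sorted samples r ran from 0.607 to 0.998. The samples share group, library and depth, and these values describe them only. The genes whose pattern over the tissue samples was most like the mean of the scaled members, among 12938 genes, were Rnase6 (r = 0.972), Gbp6 (0.960), Gbp4 (0.951), Clec7a (0.950) and Gbp8 (0.948); 3 of them are guanylate-binding proteins, a family known to be induced by interferon gamma. Over the 6 sorted samples, among 11881 genes, they were Rpap2 (0.997), Atad1 (0.990), Slamf7 (0.989), Ly6i (0.989) and Samhd1 (0.987), where 6 samples let many genes reach such values.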

How the data were processed

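Bulk RNA-Sequencing libraries of liver tissue (14) and of sorted cells (6) were analysed. The authors deposited raw counts of reads per gene, not normalized, in 2 tables with the same 54532 Ensembl genes; the table of sorted cells gives no gene names, so its members were matched by identifier. The submitters' processing notes name CASAVA, HISAT2 2.0.5 and featureCounts 1.5.0-p3 with GRCm38. The kit's strand setting is not given in the sources used here. Of the columns of values, 0 were left unmapped; 27 gene names turned into dates were restored by identifier.

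Counts were scaled by TMM, filtered by filterByExpr and tested by edgeR 4.0.16 (R 4.3.3) with the quasi-likelihood F test, two-sided, with Benjamini-Hochberg adjustment over all genes: 17187 in the tissue fit (13 samples), 14263 in the fit of sorted cells (6) and 18407 in the joint fit (19). Genes with an adjusted p up to 0.05 whose log2 fold change reached 1 in size, the study's threshold, were called. Standard errors came from the F statistic. FPKM used the deposited lengths. L-con entered the fits without a test of its own. Where samples of a group came from separate animals is stated only for the tissue livers, so p-values of the sorted cells may measure technical spread. Alternatives were DESeq2 1.42.0, total-count scaling, other filters, no fold threshold, other sets of samples, a replicate block and leaving out each replicate.

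The members, the lists and the tests were chosen with earlier results of these data known. Named beside the members were the related chains, of each other list at most the 3 called genes with the largest change per comparison and those not called where 5 or fewer, and 5 genes of most similar pattern; marker genes named for CD11b+ 3, and further called list genes, were chosen after their values were seen. Figures were drawn in matplotlib 3.10.9. Some single genes of the lists are counted but not reported here by name.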

Additional observations from a re-analysis of the deposited data

Results flagged for a closer look

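The L-con library, tumor-free liver tissue at 12 dpi from a mouse with CRLM, entered no comparison, and all 7 members were above both con libraries in it, as were 38.3% of the 17187 genes tested. H2-Aa was at 146 CPM in L-con against 93.6 and 22.8 CPM in con, H2-Ab1 at 156 CPM against 90.1 and 27.2 CPM, and H2-Eb1 at 142 CPM against 81.9 and 19.3 CPM. H2-DMa was at 18.1 CPM against 8.70 and 5.0 CPM, H2-DMb1 at 15.8 CPM against 9.98 and 2.85 CPM, Cd74 at 446 CPM against 270 and 79.3 CPM, and Ciita at 10.4 CPM against 3.94 and 1.64 CPM. The 7 values also lay below those of both Lt samples, a placing between con and Lt that 17% of the genes tested shared. With 1 library there is no replicate check and no test. Its hepatocyte list, at 152454 CPM, was below both con libraries (170320 and 198318 CPM) and its macrophage list, at 1149 CPM, above both (566 and 840 CPM), as was its Kupffer cell list, at 983 CPM (349 and 467 CPM); the part of these cells in the difference was not tested.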

How the results depend on the processing

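Of the 127 repeats of the 9 counts of members called, 117 stayed within 1.5 times the count reported. From con to Lt the count of 6 ran from 0 to 7 over the 4 fits that left out a replicate, and from con to Ht the count of 3 ran from 2 to 7; the other 7 counts did not change when a replicate was left out. From Lt to Ht the count of 0 became 1 with DESeq2, 3 with no filter on low counts and 3 with only the groups compared. It became 4 with Ht as 3 libraries, which counts Ht_1 and Ht_3 separately although they are stated to have been made identical. From con to Ht the count of 3 became 7 with total-count scaling and 7 with no filter, and among the CRLM tissues the count of 0 became 4 with no filter. The cause was not tested; under total-count scaling the median of all genes from con to Ht went from 0.09 to 1.28. Deviations of same-numbered samples from their group means correlated at 0.19, 0.40 and 0.27 between Lt and Mt3, Mt2 and Mt1, at -0.11 between con and Lt, at -0.04 and -0.08 between Ht and Lt or con, at -0.13, -0.25 and -0.23 between Ht and Mt3, Mt2 and Mt1, and from -0.12 to 0.01 between the sorted populations. In Lt, Mt3, Mt1 and Ht sample 2 was the higher for all 7 members, in Mt2 for 4 and in con for 0. Not every pair was over 0.1, and nothing states that a number marks a shared animal, so the numbers were not taken as a pairing. With it as a replicate block the counts were 5 (con to Lt), 3 (con to Ht), 7 and 7 (Mt2 to sorted cells) and 0 elsewhere. With the numbers exchanged, chosen after seeing the data, the block called 7 members from con to Lt and 0 from Mt to Ht. No call of a member changed its direction. Counts over all genes moved by more than 1.5 times as follows. From con to Lt 2177 genes became 1154 with at least 10 counts in every library, 1428 without con 1, 735 without con 2 and 918 without Lt 2. From Lt to Mt 0 became 242 with DESeq2, 887 with no filter and 778 without Mt2 1. From Mt to Ht 2563 (257 higher, 2306 lower) became 4360 (2587 and 1773) with total-count scaling, 3888 with no fold threshold and 0 without either Ht sample. From Lt to Ht 5480 (2004 and 3476) became 8297 (6216 and 2081) with total-count scaling, 2786 without Lt 1, 3157 without Ht 1 and 3533 without Ht 2, and from con to Ht the split of 4437 higher and 4139 lower became 8822 and 2249 with that scaling. Among the CRLM tissues 4289 became 7293 with DESeq2, 6827 with total-count scaling, 6970 with no filter, 6440 with Ht as 3 libraries, 2770 with only these groups, 1 without either Mt3 sample, and 0 without Lt 1, Ht 1 or Ht 2. Between the sorted cells 11 became 300 with DESeq2, 6 with total-count scaling, 242 with no filter, 5 with at least 10 counts in every library, 78 with the replicate block, 169 with all 9 groups, 136 without CD11b+ 3, and 0 without CD11b+ 2 or without Y22_M_TAM 1 or 2. From Mt2 tissue to Y22_M_TAM and CD11b+ cells 7793 and 8082 became 3742 and 3870 with at least 10 counts in every library. At 3 counts per library, levels under 0.275 CPM on the TMM scale (con 1, the highest such floor) could not be told from 0.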
